A study of Mus musculus with 18 samples.

Results

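The comparison set a pair of antigen-presenting cell types of the mouse small intestine against each other, dendritic cells (DCs) and macrophages, both of which carry the integrin CD103 at their surface and both of which held no GFP signal. It rests on 6 of the 18 microarrays of the series: 3 arrays of GFP-minus CD103 DCs and 3 arrays of GFP-minus CD103 CD11b CD64 macrophages, chosen by their titles. Of the other arrays, 3 each hold GFP-plus CD103 DCs, GFP-plus CD103 CD11b CD64 macrophages, and the CD11b CD64 macrophages without the CD103 gate, GFP-plus and GFP-minus. All 18 samples came from male and female mice labelled VDTR, a strain with a diphtheria toxin receptor fused to GFP in the intestinal epithelium under the villin promoter (the promoter is background and is not in the labels). Every mouse, those of the GFP-minus samples included, received diphtheria toxin at 2 ng/kg into the peritoneum and was killed after 4 h, so no sample represents an untreated gut. All cells were sorted as live, CD45+, CD11c+ and MHCII+. DCs were then gated as CD103+ CD24+ and macrophages as CD103+ CD11b+ CD64+, in both cases without GFP in the 2 groups compared here. GFP in these cells is taken as engulfed epithelial material, so the GFP-minus cells are those without a detectable load of it. An "n value" of 4 stands beside each sample with no explanation, and ages are not given. Nothing says whether the 3 replicates came from separate mice. The p-values therefore measure a spread between arrays within groups, pooled over the 6 groups of the series, which may be technical.

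Conventional DCs of the type 1 lineage depend on the transcription factors IRF8 and BATF3 and on the growth factor receptor FLT3. They bear the chemokine receptor XCR1, present antigen from dead cells to CD8 T cells, and carry antigen from the gut to the mesenteric lymph nodes, where DCs with the retinoic acid enzyme RALDH2 imprint gut homing on T cells. Intestinal macrophages are mostly replenished by blood monocytes, depend on CSF1R, stay in the tissue, engulf dying cells and bacteria, and secrete IL-10.

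Each value below is a log2 signal relative to the median of the same probe over all 18 arrays. A value of 0 is therefore the probe's middle array and not an absence of signal, levels cannot be compared between genes, and 12 of the 18 arrays that set this median are macrophages. A fold is 2 to the power of the difference between group means. The number of arrays, and not a read depth, limits the precision. Pairwise Pearson r over all genes was 0.564 to 0.715 among the 3 DC arrays and 0.00925 to 0.262 among the 3 macrophage arrays. The values are centred on a median that macrophage arrays largely set, and the effect of this on r was not tested. Over all probes the interquartile range was 0.3517, 0.4379 and 0.3024 in the macrophage arrays, against 0.3751, 0.2784 and 0.2931 in the DC arrays. Whether the lower r of the macrophage arrays goes with the centring or with poorer replication was not tested. limma gave macrophage replicate 2 an array weight of 0.437, against 1.28 and 0.792 for replicates 1 and 3. DC replicate 1 had 0.637, against 2.235 and 1.433 for DC replicates 2 and 3. The other arrays below 0.5 were GFP-plus DC replicate 1 (0.414) and GFP-plus CD103 macrophage replicate 1 (0.352). The CD103 transcript of macrophage replicate 2 also lay below that of replicates 1 and 3, as described next. Counts are therefore also given without macrophage replicate 2, and for comparison without macrophage replicate 3.

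The transcripts of the sorted proteins were read first, as a check of the labels and not as a finding. Itgae, which encodes CD103, stood at 5.56, 5.56 and 5.28 in the GFP-minus DCs, against 3.44, -0.43 and 2.66 in the GFP-minus CD103 macrophages. The second macrophage array was thus at the level of the macrophages sorted without CD103 (mean -0.32 over 3 arrays), while the other 2 lay well above it. The GFP-plus CD103 macrophages, also gated as CD103+, stood at -0.44, -0.15 and 0.05. Replicate 2 was thus at their level too, and replicates 1 and 3 were the arrays above it. Cd24a, the DC gate's second protein, stood at 4.57, 4.51 and 4.64 in the DCs, against 1.65, -1.09 and 1.37 in the macrophages, with the same macrophage array lowest. In the GFP-plus CD103 macrophages it stood at -1.86, -0.65 and -0.56. Itgam, which encodes CD11b, stood at -4.56, -3.79 and -3.78 in the DCs, against 0.65, -0.30 and 0.30 in the macrophages. Fcgr1, which encodes CD64, stood at -5.10, -4.16 and -4.29 in the DCs, against 0.39, 0.39 and 0.28 in the macrophages. The Cd24a, Itgam and Fcgr1 differences had the direction of the gates, with 3.93 ± 0.58, -4.26 ± 0.24 and -4.87 ± 0.32 log2 units (SE, n = 3 each). CD103 was required in both gates, so the gates set no direction for Itgae. It nevertheless differed by 3.57 ± 0.65 and passed the test. The other markers used in both gates did not pass the test. Ptprc (CD45), Itgax (CD11c), H2-Ab1 and H2-Aa differed by 0.57 ± 0.30, 0.62 ± 0.32, -0.04 ± 0.09 and -0.25 ± 0.11. Without macrophage replicate 2, the Itgae difference was 2.41 (adjusted p = 3.32e-05) and the Cd24a difference 3.06 (adjusted p = 0.00049). In a fit of these 6 arrays alone the Itgae and Cd24a calls were lost (adjusted p = 0.168 and 0.0551), and in a fit of the 9 GFP-minus arrays the Itgae call (0.0768).

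Of 22180 genes tested across all arrays in one limma fit, 805 (3.63%) differed between GFP-minus DCs and GFP-minus CD103 macrophages at a Benjamini-Hochberg adjusted p below 0.05. DCs were higher for 334 genes (1.51% of those tested) and lower for 471 (2.12%). The lower side held the wider differences: 155 genes were at least 8-fold lower in DCs and 52 at least 8-fold higher. In 800 of the 805 genes the 3 DC arrays lay all above or all below the 3 macrophage arrays, a separation seen in 18.9% of all genes (9.31% higher, 9.63% lower). The 5 exceptions were Dipk1a, F2rl2, Pnn, Sfxn1 and Ssr3, listed after their values were seen, and each lost its call when 1 or more of the 6 arrays was left out. Without macrophage replicate 3 the counts were 425 higher and 479 lower, and they were 183 higher and 410 lower without macrophage replicate 2. The higher count also moved by more than 1.5 times without DC replicate 2 (214) and without DC replicate 3 (216), and with array weights (636 of 1292 called).

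**Figure D1:**
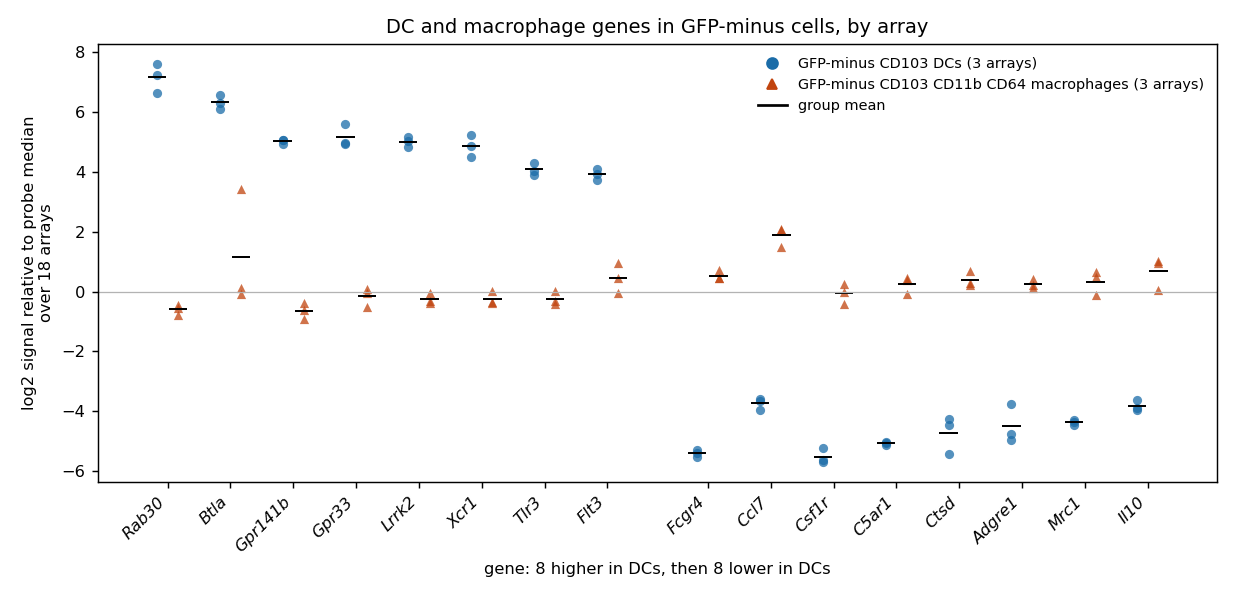
Log2 signal relative to the probe's median over 18 arrays (vertical axis) for 8 genes higher in DCs and 8 genes lower in DCs (horizontal axis), with a point per array: circles for the 3 GFP-minus DC arrays, triangles for the 3 GFP-minus CD103 macrophage arrays, and a bar at each group's mean. In each gene drawn the DC arrays lie on one side of the macrophage arrays, and for Btla macrophage replicate 3, at 3.44, stands above the other macrophage arrays.

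Of 22 measured genes of type 1 conventional DCs, 13 rose in the GFP-minus DCs, none fell and 9 did not pass the test, and the median log2 difference over the 22 was 1.99, against -0.017 over all genes tested. Xcr1, the receptor for the chemokine XCL1, stood at 5.23, 4.49 and 4.86 in DCs, against -0.36, 0.03 and -0.39 in macrophages. No array of one group reached the other, and the difference was 5.10 ± 0.53 log2 units, or 34.3-fold (limma adjusted p = 2.73e-05). Tlr3, the endosomal sensor of double-stranded RNA, stood at 4.29, 3.90 and 4.04 in DCs, against -0.33, -0.41 and 0.02 in macrophages, a difference of 4.32 ± 0.43 (adjusted p = 1.91e-05). Irf8, the transcription factor on which the lineage depends, stood at 1.35, 1.43 and 1.30 in DCs, against -0.18, -0.49 and -0.72 in macrophages. Its difference was smaller but as regular, at 1.82 ± 0.16 (adjusted p = 5.55e-06). Batf3, its partner in this lineage, did not pass the test: DC arrays stood at 0.59, 0.82 and 0.07, against 0.11, 0.32 and -0.81 in macrophages, and the groups overlapped. Gpr141b, an orphan receptor, differed by 5.66 ± 0.27, Wdfy4, which is required for cross-presentation by these DCs, by 3.24 ± 0.61, and Cadm1, an adhesion molecule of the lineage, by 2.17 ± 0.54. Tlr11, the receptor for a profilin of Toxoplasma, differed by 3.37 ± 0.62. Gcsam, a signalling adaptor, differed by 3.09 ± 0.31, and Ppt1, a lysosomal thioesterase, by 1.28 ± 0.15. The Cadm1 call was lost without DC replicate 1, DC replicate 2, DC replicate 3, macrophage replicate 2 or macrophage replicate 3 (adjusted p = 0.0842, 0.119, 0.127, 0.18 and 0.0723). In the fit of the 6 arrays alone the Wdfy4 and Tlr11 calls were lost as well (adjusted p = 0.0551 and 0.0613).

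Genes of conventional DCs at large were higher only in part. Of 25 measured genes common to conventional DCs, 7 rose and none fell, with a median log2 difference of 0.98. Flt3, the growth factor receptor that DCs need, stood at 3.73, 3.94 and 4.09 in DCs, against 0.97, -0.06 and 0.45 in macrophages, a difference of 3.46 ± 0.21 (adjusted p = 7.46e-08). Kit, the stem cell factor receptor, differed by 2.94 ± 0.66, and Hmgn3, a chromatin protein, by 2.34 ± 0.18. Btla, an inhibitory receptor, stood at 6.56, 6.11 and 6.29 in DCs, against -0.08, 0.13 and 3.44 in macrophages. Macrophage replicate 3 stood well above the other two macrophage arrays there, yet below every DC array, and the difference was 5.15 ± 0.66 (adjusted p = 0.00022). Zbtb46, the transcription factor often used to mark conventional DCs, did not separate the groups, with 0.40, 0.15 and -0.61 in DCs, against -0.56, -0.04 and -0.62 in macrophages (adjusted p = 0.886). Dpp4 (CD26), another DC surface marker, missed the threshold with 2.04 ± 0.58 (adjusted p = 0.0739). Of 18 genes of type 2 conventional DCs, which carry CD11b, none rose and 3 fell: Sirpa, Ltb and Cd209a. Ltb stood at -0.52, 0.24 and -0.17 in DCs, against 0.53, 2.46 and 3.99 in macrophages. The macrophage arrays had the same order for the mean over the T cell and innate lymphocyte genes read below, at 0.83, 0.98 and 2.02. Whether lymphocytes had a part in the Ltb difference was not tested. Sirpa, an inhibitory receptor for CD47 that macrophages carry as well, changed by -4.51 ± 0.27 log2 units in DCs, while Irf4, the transcription factor of that lineage, differed by -0.64 ± 0.41 and did not pass the test. The call of Kit was lost without DC replicate 2, DC replicate 3, macrophage replicate 1 or macrophage replicate 2 (adjusted p = 0.0897, 0.0693, 0.0579 and 0.0904), that of Ltb without DC replicate 1, DC replicate 2, DC replicate 3, macrophage replicate 2 or macrophage replicate 3 (adjusted p = 0.144, 0.0807, 0.12, 0.135 and 0.112) and that of Cd209a without DC replicate 1, macrophage replicate 1 or macrophage replicate 3 (adjusted p = 0.0999, 0.0871 and 0.0582). The Cd209a call was also lost when the probe of largest variance stood for the gene, and the Ltb call after quantile normalization and with array weights. The Btla call was lost in the 6-array fit (adjusted p = 0.0551).

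The widest differences upward included these lineage genes and others. Rab30, a small GTPase of the Golgi, stood at 7.23, 7.60 and 6.63 in DCs, against -0.79, -0.56 and -0.44 in macrophages, 215-fold higher and the widest difference of any called gene. Gpr33, a chemoattractant-like orphan receptor, differed by 5.33 ± 0.24 log2 units, and Lrrk2, a kinase known from Parkinson's disease, by 5.24 ± 0.34. Each of the 3 genes was called in the GFP-plus cells too, with 4.81 ± 1.06, 5.47 ± 0.24 and 3.90 ± 0.34. For Rab30 the GFP-plus DC arrays were uneven, at 0.84, 7.03 and 6.09, against -0.33, -0.20 and 0.04 in the GFP-plus CD103 macrophages. Plpp1, a lipid phosphatase, differed by 5.30 ± 0.91, and St3gal5, which makes the ganglioside GM3, by 4.04 ± 0.32. Ffar4, a receptor for long-chain fatty acids, differed by 4.36 ± 0.63. Signalling proteins in the same group were Rasgrp3, a Ras exchange factor, with 4.79 ± 0.29, Gnb4, a G protein subunit, with 4.62 ± 0.25, and Dapk2, a death-associated kinase, with 4.41 ± 0.35. Ly75, which encodes the endocytic receptor DEC-205, stood at 4.26, 4.0 and 4.02 in DCs, against 0.33, -0.06 and -0.02 in macrophages. Its replicates lay close together, and its adjusted p of 1.6e-10 was the smallest of the genes higher in DCs. Actn1, an actin cross-linker, stood at 5.59, 5.79 and 5.72 in DCs, against 2.63, -0.10 and 0.63 in macrophages, with macrophage replicate 1 above the other two.

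Of 31 measured genes common to tissue macrophages, 23 fell in DCs, none rose, and the median log2 difference was -3.12. Csf1r, the receptor on which macrophages depend, stood at -5.61, -5.68 and -5.23 in DCs, against 0.25, -0.41 and -0.02 in macrophages, 43.5-fold lower in DCs (limma adjusted p = 5.82e-10). Adgre1, which encodes F4/80, stood at -4.74, -3.74 and -4.96 in DCs, against 0.43, 0.11 and 0.23 in macrophages, and Mrc1, the mannose receptor, at -4.35, -4.29 and -4.46, against 0.47, -0.13 and 0.66. All 3 genes placed DCs far below every macrophage array. Cx3cr1, the receptor for the chemokine fractalkine, changed by -4.69 ± 0.31 log2 units in DCs, Mertk, a receptor for dying cells, by -2.55 ± 0.41, and Tlr7, a sensor of single-stranded RNA, by -3.12 ± 0.20. Macrophage replicate 2, the lowest of the 3 for Itgae, was not near the DCs here: it stood at -0.41 for Csf1r and 0.11 for Adgre1. GFP-minus macrophages sorted without CD103 had means of 0.15 and -0.07 for these genes. The values therefore cannot tell whether replicate 2 held CD103+ macrophages. Without macrophage replicate 2, 24 of the 31 genes fell. The Mertk call was lost after quantile normalization (adjusted p = 0.0609).

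Genes known from gut macrophages gave 12 of 23 lower in DCs and none higher, with a median of -2.03. Il10, the anti-inflammatory cytokine, stood at -3.95, -3.61 and -3.90 in DCs, against 0.95, 1.03 and 0.05 in macrophages, 22.6-fold lower in DCs (adjusted p = 6.49e-06). Its receptor chain Il10ra differed by -1.32 ± 0.46 and did not pass the test. Adamdec1, a protease-like gene of gut macrophages, changed by -3.71 ± 0.26 log2 units, Acp5, an acid phosphatase, by -4.02 ± 0.29, Hpgd, which inactivates prostaglandins, by -3.37 ± 0.20, and Stab1, a scavenger receptor, by -3.47 ± 0.25. Blood monocyte genes were mixed: of 17, 1 rose (Nr4a1, an orphan nuclear receptor) and 3 fell (S100a4, Ms4a4c and Ifitm3). The Ms4a4c call was lost without DC replicate 2 or macrophage replicate 2 (adjusted p = 0.0667 and 0.0643), and the Ifitm3 call without DC replicate 1, DC replicate 3, macrophage replicate 1, macrophage replicate 2 or macrophage replicate 3 (adjusted p = 0.14, 0.0901, 0.107, 0.108 and 0.0572). Ly6c2, the monocyte marker, stood at -1.06, 1.82 and 1.27 in DCs, against 1.22, 1.47 and 1.20 in macrophages, and Ccr2, the receptor that brings monocytes into tissue, at 0.41, -0.35 and 0.13, against 1.64, 1.94 and 2.44. The Ly6c2 ranges overlapped and those of Ccr2 did not, but neither passed the test (adjusted p = 0.755 and 0.083). The Nr4a1 and S100a4 calls were lost in the 6-array fit (adjusted p = 0.102 and 0.0529), that of Nr4a1 also with the 9 GFP-minus arrays (0.0581).

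Of 19 complement genes, 10 were lower in DCs and none higher, with a median of -1.99. The C1q chains, which tag dying cells and immune complexes, differed by -4.93 ± 0.35 for C1qa, -5.18 ± 0.50 for C1qb and -4.53 ± 0.55 for C1qc, whose call was lost in the 6-array fit (adjusted p = 0.0519). C5ar1, the receptor for C5a, stood at -5.11, -5.07 and -5.01 in DCs, against 0.44, 0.39 and -0.09 in macrophages. The DC arrays lay close together, and the fall was 39.6-fold (adjusted p = 1.6e-10). C3ar1, the receptor for C3a, changed by -5.14 ± 0.28 log2 units, Cfb, a protease of the alternative pathway, by -4.56 ± 0.25, and C4b, of the classical pathway, by -3.71 ± 0.30. C1ra, a protease of the C1 complex, did not pass the test with -0.21 ± 0.36.

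Of 14 genes of receptors for antibody, 5 fell in DCs and none rose. Fcgr4, an activating receptor for IgG, had the widest difference downward of any called gene: -5.51, -5.30 and -5.38 in DCs, against 0.44, 0.71 and 0.44 in macrophages, 61-fold lower in DCs (adjusted p = 4.85e-10). Fcgr3, another activating receptor, changed by -4.57 ± 0.21 log2 units, Fcgr2b, the inhibitory receptor, by -4.31 ± 0.32, and Fcer1g, the signalling chain that activating receptors share, by -4.36 ± 0.66. Activating and inhibitory receptors were thus lower together. The neonatal receptor Fcgrt, which recycles IgG, differed by -1.16 ± 0.44 and did not pass the test.

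Of 32 genes for the engulfment of dying cells, 12 fell in DCs and none rose, while the median over the list was only -0.40. Axl, a receptor tyrosine kinase for dying cells, stood at -3.83, -3.28 and -3.99 in DCs, against 0.82, -0.12 and 0.17 in macrophages, and its bridging ligand Gas6 at -1.59, -1.68 and -1.30, against 2.12, 0.13 and 0.90. Tyro3, the third kinase of that family, differed by -0.15 ± 0.14 and did not pass the test. Itgb5, an integrin subunit that binds the bridging protein MFG-E8, changed by -4.39 ± 0.22 log2 units, Msr1, a scavenger receptor, by -4.03 ± 0.24, and Thbs1, a bridging protein, by -4.04 ± 0.35. Among 28 C-type lectin and related endocytic receptors, 12 fell and Ly75 alone rose. Clec4a3 and Clec4a1, both of the DCIR family, changed by -5.48 ± 0.33 and -4.77 ± 0.45 log2 units, Clec4n (dectin-2), a receptor for fungal mannans, by -4.22 ± 0.28, and Siglece, an inhibitory sialic acid receptor, by -4.42 ± 0.33. These lectin genes are close paralogs, and cross-hybridisation between their probes was not tested. Clec4a4, of the same family, differed by -0.02 ± 0.22. The Gas6 call was lost in the 6-array fit (adjusted p = 0.0632).

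Of 21 genes of the Toll-like receptors and their co-receptors, 2 rose (Tlr3 and Tlr11) and 6 fell. Tlr2, which binds bacterial lipoproteins, stood at -2.84, -2.66 and -1.82 in DCs, against 1.27, 1.78 and 1.03 in macrophages. Cd14, the co-receptor for lipopolysaccharide, changed by -4.12 ± 0.39 log2 units, Tlr4, the lipopolysaccharide receptor, by -2.43 ± 0.51, Tlr8 by -3.44 ± 0.35 and Tlr1 by -3.68 ± 0.90. For Tlr1, DC replicate 3 stood at -1.71, against -4.73 and -4.47 in the other two DC arrays, and the call was lost without DC replicate 1, DC replicate 2, macrophage replicate 1, macrophage replicate 2 or macrophage replicate 3 (adjusted p = 0.141, 0.143, 0.0871, 0.109 and 0.07). The Tlr4 call was lost without macrophage replicate 1 (adjusted p = 0.0668).

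**Figure D2:**
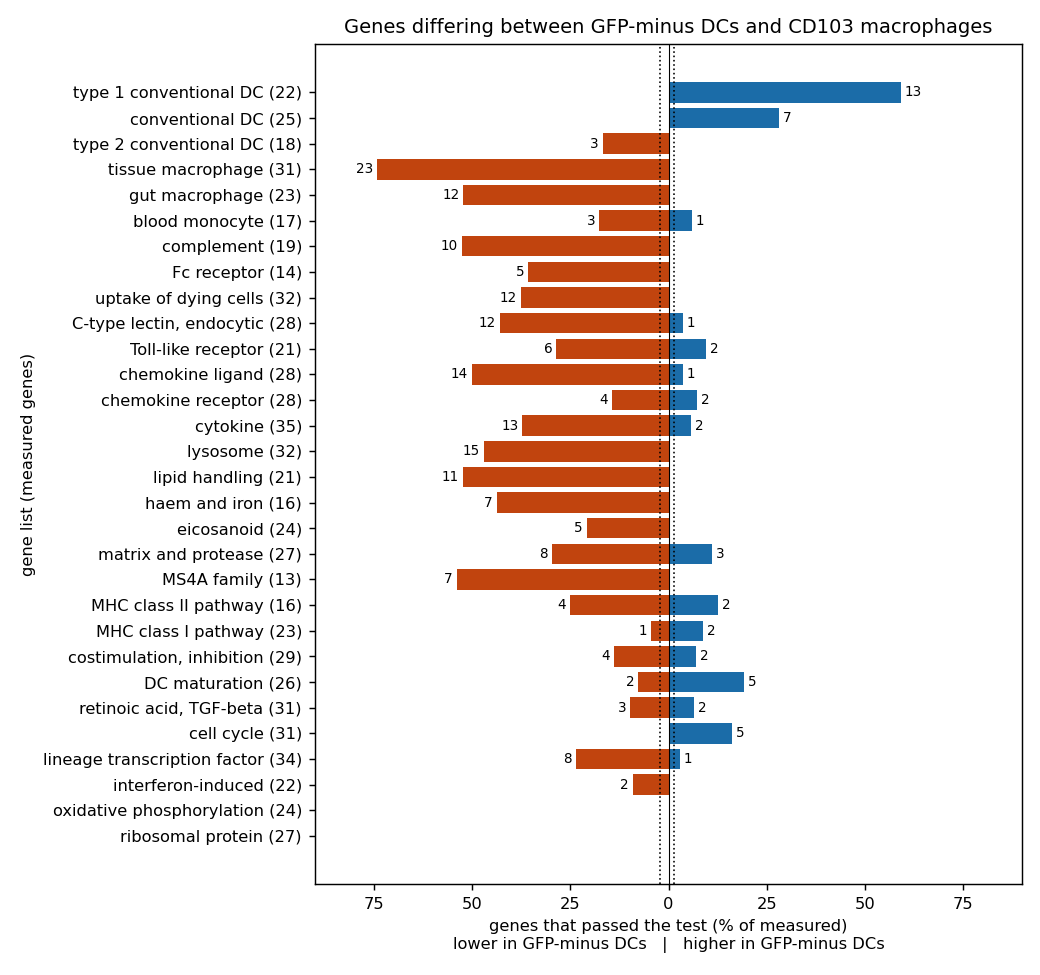
Share of each gene list's measured genes (horizontal axis, percent) that passed the test, higher in GFP-minus DCs to the right and lower in GFP-minus DCs to the left, for 30 lists; the number after each list's name is its measured genes, and dotted lines mark the shares over all genes tested, 1.51% higher and 2.12% lower. The type 1 DC list reaches 13 of 22 on the right, and the tissue macrophage list 23 of 31 on the left.

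Of 28 chemokine ligands, 14 fell in DCs and 1, Ccl17, rose, a call lost without DC replicate 2, DC replicate 3 or macrophage replicate 2 (adjusted p = 0.052, 0.0599 and 0.0606). Ccl7 stood at -3.96, -3.66 and -3.57 in DCs, against 2.09, 2.06 and 1.49 in macrophages, 48.7-fold lower in DCs (adjusted p = 2.57e-07). Ccl2, Ccl8 and Ccl12, further monocyte chemoattractant proteins, changed by -3.69 ± 0.64, -4.75 ± 0.52 and -4.77 ± 0.34 log2 units. Pf4 (CXCL4) changed by -4.85 ± 0.28, Ccl6 by -4.47 ± 0.41, Cxcl1, which attracts neutrophils, by -3.45 ± 0.40, and the inflammatory chemokines Ccl3 and Ccl4 by -3.01 ± 0.45 and -2.38 ± 0.39. Ccl5, which attracts T cells, differed by -1.73 ± 0.47 and did not pass the test (adjusted p = 0.064). Of 28 chemokine receptors, 2 rose, Xcr1 and the gut-homing receptor Ccr9 (0.99 ± 0.18), and 4 fell, Cx3cr1, Ccr1, Ccrl2 and Cxcr4. Ccr1, a receptor for several inflammatory chemokines, stood at -4.32, -3.59 and -3.68 in DCs, against -0.44, 0.10 and -0.10 in macrophages, with no overlap. The Ccrl2 call was lost in the 6-array fit (adjusted p = 0.112).

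Of 35 cytokine genes, 13 were lower in DCs and 2 higher. Osm (oncostatin M) stood at -3.78, -3.75 and -3.64 in DCs, against 0.49, 0.19 and 0.40 in macrophages, a difference of -4.09 ± 0.18 (adjusted p = 3.6e-09). Il1rn, the antagonist of the interleukin 1 receptor, changed by -3.97 ± 0.34 log2 units, Il18bp, which binds and blocks interleukin 18, by -3.54 ± 0.28, Il1b by -2.15 ± 0.43 and Igf1, a growth factor, by -2.99 ± 0.33. An agonist and an antagonist of the interleukin 1 receptor were thus both lower. The 2 that rose were Lif (leukaemia inhibitory factor) and Il12b, the shared chain of interleukins 12 and 23. Lif stood at 5.0, 2.81 and 2.91 in DCs, against 0.74, -0.31 and -0.41 in macrophages, and Il12b at 0.80, 0.93 and 1.17, against -1.06, -0.80 and -1.71. Il6, a further cytokine of the list, differed by 0.52 ± 0.46 and did not pass the test. The call of Il1a, an alarm cytokine that changed by -1.41 ± 0.36, was lost without DC replicate 1, DC replicate 3, macrophage replicate 1, macrophage replicate 2 or macrophage replicate 3 (adjusted p = 0.179, 0.147, 0.139, 0.123 and 0.0745). The Lif call was lost in the 6-array fit (adjusted p = 0.0568).

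Of 32 lysosomal genes, 15 fell in the GFP-minus DCs, none rose, and the median was -1.25. Ctsd, which encodes the aspartic protease cathepsin D, stood at -5.42, -4.46 and -4.24 in DCs, against 0.69, 0.30 and 0.21 in macrophages, 34.5-fold lower in DCs (adjusted p = 4.79e-08). Lamp1, the major lysosomal membrane glycoprotein, stood at -2.17, -2.05 and -2.75 in DCs, against 0.24, 0.00 and 0.00 in macrophages, a difference of -2.40 ± 0.22, and Lamp2, its relative, differed by -1.12 ± 0.18. The cysteine proteases Ctsl and Ctsb changed by -3.24 ± 0.30 and -2.84 ± 0.25 log2 units, the carboxypeptidase Ctsa by -2.64 ± 0.22, and Lgmn (legumain), a protease that cuts antigens, by -3.99 ± 0.40. Cd68, a macrophage lysosomal glycoprotein, differed by -0.91 ± 0.24 and missed the threshold (adjusted p = 0.0575).

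Many lysosomal genes carry the palindrome CACGTG, the core of the element that TFEB and its relatives recognise, near their start. In the 250 bases before the RefSeq start, 10 of 27 lysosomal genes with a listed promoter held it (37%), as did 6 of the 13 among those that fell (46.2%), against 7.83% of 16990 promoters of genes tested. Among all genes with a listed promoter, 36 of 375 lower in DCs (9.6%) and 21 of 279 higher in DCs (7.53%) held it. The promoters of Ctsd and Lamp1, the protease and the membrane protein described above, are shown because both hold it more than once; they are from RefSeq on GRCm38.p6, 5′ to 3′ on the gene's strand, ending just before the start, with each CACGTG (the same on both strands) in capitals. The Ctsd window is chr7:142387828-142388077 on the minus strand, and the Lamp1 window chr8:13158911-13159160 on the plus strand. The match is a description of these letters and not evidence of binding.
Ctsd: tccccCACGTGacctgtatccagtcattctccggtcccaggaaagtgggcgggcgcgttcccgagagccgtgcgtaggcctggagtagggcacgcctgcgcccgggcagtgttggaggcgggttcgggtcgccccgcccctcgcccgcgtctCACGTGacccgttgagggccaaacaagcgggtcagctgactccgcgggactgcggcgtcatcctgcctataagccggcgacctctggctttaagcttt
Lamp1: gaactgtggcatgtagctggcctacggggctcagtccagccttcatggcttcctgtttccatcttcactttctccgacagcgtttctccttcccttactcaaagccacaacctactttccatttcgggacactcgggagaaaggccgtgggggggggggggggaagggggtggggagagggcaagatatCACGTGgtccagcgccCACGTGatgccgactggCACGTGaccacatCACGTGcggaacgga

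Of 21 genes of lipid uptake, transport and storage, 11 fell in DCs and none rose, with a median of -1.79. Apoe, the carrier apolipoprotein, stood at -3.19, -3.49 and -3.84 in DCs, against 0.09, -0.03 and 0.03 in macrophages, and Abca1, the cholesterol exporter, at -3.28, -2.94 and -2.95, against 0.43, -0.61 and 0.50. Pltp, a phospholipid transfer protein, changed by -4.56 ± 0.35 log2 units, Nr1h3, which encodes the sterol-sensing receptor LXR alpha, by -2.13 ± 0.33, Apoc2, an apolipoprotein that activates lipoprotein lipase, by -3.39 ± 0.52, and Fabp5, a fatty acid carrier, by -2.96 ± 0.43. Abcg1, the second cholesterol exporter, differed by -1.79 ± 0.57 and did not pass the test. Of 16 genes of haem and iron recycling, 7 fell. Hmox1, which breaks down haem, changed by -3.42 ± 0.46, Slc11a1, an endosomal metal transporter, by -3.0 ± 0.50, and Fth1, the ferritin heavy chain, by -0.73 ± 0.11. Cd163, the haemoglobin scavenger receptor, stood at -0.45, -0.31 and -0.50 in DCs, against 2.85, 0.63 and 3.79 in macrophages, where replicate 2 was well below the other two. The Nr1h3 call was lost after quantile normalization (adjusted p = 0.125). Calls lost in the 6-array fit were those of Hmox1, Fth1 and Cd163 (adjusted p = 0.05, 0.0551 and 0.168), that of Cd163 also with the 9 GFP-minus arrays (0.0763).

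Among enzymes of eicosanoid metabolism, 5 of 24 fell and none rose. Ptgs2, the inducible cyclooxygenase, changed by -3.94 ± 0.37 log2 units, Pla2g7, which degrades platelet-activating factor, by -3.60 ± 0.20, Pla2g15, a lysosomal phospholipase, by -3.05 ± 0.44, and Alox5, which starts leukotriene synthesis, by -1.94 ± 0.50, the last with a call lost without DC replicate 1, DC replicate 2, DC replicate 3, macrophage replicate 1 or macrophage replicate 3 (adjusted p = 0.113, 0.12, 0.137, 0.188 and 0.118). Of 27 genes of matrix proteins and proteases, 8 fell and 3 rose. Mmp9, a gelatinase, stood at -5.08, -5.16 and -5.28 in DCs, against 0.18, -0.69 and -0.81 in macrophages. Mmp13, a collagenase, and Ecm1, an extracellular matrix protein, changed by -3.84 ± 0.43 and -3.86 ± 0.44. Adam8, a membrane metalloprotease, went the other way, with 3.16, 3.34 and 3.35 in DCs, against -0.63, -1.38 and -0.02 in macrophages. Receptors for extracellular nucleotides gave 3 falls of 15: P2ry13, P2rx4 and P2rx7, by -3.95 ± 0.35, -3.37 ± 0.38 and -2.93 ± 0.35. In the MS4A family of membrane proteins, 7 of 13 fell, among them Ms4a7 (-3.90 ± 0.16) and Ms4a6d (-3.44 ± 0.28). The linked membrane genes Tmem176b and Tmem176a changed by -5.51 ± 0.15 and -4.86 ± 0.26, and the adjusted p of Tmem176b, 4.93e-11, was the smallest of the whole comparison. Lair1, an inhibitory receptor for collagen, changed by -4.88 ± 0.30. The Pla2g15 call was lost in the 6-array fit (adjusted p = 0.0643).

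Of 16 genes of the MHC class II pathway, 2 rose and 4 fell. The rises were H2-Oa and H2-Ob, the chains of the H2-O heterodimer that restrains peptide loading by H2-M: H2-Oa stood at 2.37, 1.68 and 2.23 in DCs, against 0.07, -0.70 and -1.41 in macrophages, and H2-Ob at 2.39, 2.75 and 3.46, against 0.63, -0.67 and -0.02. Both were separated without overlap, by 2.78 ± 0.55 and 2.89 ± 0.49. The falls were proteases or vesicle proteins, Lgmn, Ctsl, Ctss and Cd63. Ctss (cathepsin S), which trims the invariant chain, changed by -1.05 ± 0.19. Ciita, the regulator of class II genes, differed by 0.23 ± 0.38 and H2-Eb1 by -0.18 ± 0.10, and neither passed the test. Of 23 class I genes, 2 rose (Wdfy4 and the immunoproteasome subunit Psmb9, 0.97 ± 0.17) and 1 fell (H2-K1, -0.74 ± 0.18), while B2m, the light chain, stood at -0.08, -0.03 and 0.01 in DCs, against -0.11, -0.04 and 0.05 in macrophages. The H2-K1 call was lost without DC replicate 2, DC replicate 3, macrophage replicate 1, macrophage replicate 2 or macrophage replicate 3 (adjusted p = 0.105, 0.15, 0.133, 0.0733 and 0.0573). The Psmb9 call was lost after quantile normalization (adjusted p = 0.216) and the Ctss call in the 6-array fit (0.0902).

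Costimulation and maturation genes did not move as a block in the GFP-minus cells. Of 29 costimulatory and inhibitory ligands and receptors, 2 rose (Btla and Cd200) and 4 fell (Cd40, Vsir, Lgals9 and Slamf9). Cd40, the receptor through which T cells license DCs, stood at -3.20, -2.64 and -2.27 in DCs, against -0.03, 0.36 and -0.33 in macrophages. Cd80 and Cd86, the ligands of CD28, differed by 0.83 ± 0.47 and 0.67 ± 0.35, and Cd274 (PD-L1) by -0.73 ± 0.31; none of the 3 passed the test. The Cd40 call was lost without DC replicate 1 or macrophage replicate 2 (adjusted p = 0.0567 and 0.0567), and the Cd200 call without any 1 of the 6 arrays (adjusted p = 0.0612 to 0.127). Of 26 genes of DC maturation, 5 rose and 2 fell, with a median of 0.04. Fscn1, an actin bundler of mature DCs, stood at 3.15, 1.99 and 1.97 in DCs, against -0.91, -0.72 and -0.67 in macrophages, and Ccl17, a chemokine of mature DCs, at 0.22, 1.51 and 1.92, against -0.22, -1.71 and -1.39. Ccr7, the receptor that guides DCs to lymph nodes, stood at -1.59, 0.98 and 0.56 in DCs, against 0.35, -0.71 and 0.73 in macrophages, and the ranges overlapped (adjusted p = 0.979). In the GFP-plus gate the same list gave 9 higher and none lower, with a median of 0.88 and a Ccr7 difference of 4.38 ± 0.86 (adjusted p = 0.00526). The difference between the gates was itself tested and did not pass for Ccr7 (adjusted p = 0.134), while it passed for Fscn1 and Ccl17 (adjusted p = 0.0169 and 0.00826). Those calls between the gates were not followed through other fits.

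Genes of retinoic acid and TGF-beta signalling gave 2 higher, 3 lower and a median near 0 over 31. Aldh1a2, which encodes RALDH2, stood at 3.53, 3.28 and 3.56 in DCs, against 0.72, -0.28 and -0.07 in macrophages, 10.1-fold higher (adjusted p = 1.68e-05). Cyp26b1, which degrades retinoic acid, rose as well, with 2.44, 3.69 and 3.36 in DCs, against -0.13, 0.02 and -0.03 in macrophages. Dhrs3, which turns retinaldehyde back into retinol, changed by -3.80 ± 0.41 log2 units. An enzyme that makes retinoic acid and one that removes it were thus both higher in DCs, and one that removes its precursor was lower. Aldh1a1 and Aldh1a3, the other retinaldehyde dehydrogenases, differed by -0.27 ± 0.44 and 0.00 ± 0.18 and did not pass the test. Tgfbr2, a TGF-beta receptor chain, changed by -1.43 ± 0.36, and its call was lost without DC replicate 2, DC replicate 3, macrophage replicate 1 or macrophage replicate 2 (adjusted p = 0.125, 0.163, 0.175 and 0.127).

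Of 31 genes of the cell cycle, 5 rose in GFP-minus DCs, none fell and 26 did not pass the test, and the median was 1.04. Without DC replicate 2, DC replicate 3 or macrophage replicate 1, 4 of the 31 rose. Mki67, the marker of cycling cells, stood at 1.53, 1.34 and 1.28 in DCs, against -1.04, -2.35 and -1.37 in macrophages, and Kif11, a spindle motor, at 1.60, 1.64 and 2.11, against -0.38, -0.51 and -0.14. Both separated the groups, by 2.97 ± 0.51 (adjusted p = 0.00281) and 2.12 ± 0.36 (adjusted p = 0.00274). Cenpe, a kinetochore motor, differed by 1.86 ± 0.35, Nusap1, a spindle protein, by 1.78 ± 0.42, and Rrm2, which makes deoxynucleotides, by 1.36 ± 0.27. Top2a, Cdk1 and Ccna2 did not pass the test: for Cdk1, DC arrays stood at 2.26, 1.36 and 1.81, against -1.01, -0.52 and 2.13 in macrophages, where replicate 3 lay within the DC range. In the GFP-plus gate none of the 31 passed in either direction, and the median was -0.05. The difference between the gates did not pass for any of the 5 genes at the threshold of 0.05, Cenpe coming nearest (adjusted p = 0.0527). Without macrophage replicate 2 the GFP-minus median was 0.63 and 5 genes rose, while the call of Nusap1 was lost without DC replicate 2, DC replicate 3 or macrophage replicate 1 (adjusted p = 0.125, 0.107 and 0.126). The Cenpe call was lost in the 6-array fit (adjusted p = 0.0993).

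Of 34 transcription factors of these lineages, Irf8 alone rose and 8 fell. Spic, a factor of iron-recycling macrophages, stood at -1.87, -1.82 and -1.75 in DCs, against 2.0, 2.92 and 1.54 in macrophages. Maf changed by -3.33 ± 0.46 log2 units, Cebpb by -3.77 ± 0.59, and Cebpa, another myeloid factor, by -3.59 ± 0.66. Id2, on which DCs depend, differed by 0.11 ± 0.27 and did not pass. Of 21 genes of Notch signalling only Hes1, a target of the pathway, passed, changing by -2.88 ± 0.33, and Notch2, the receptor that CD11b-bearing gut DCs need, differed by -0.37 ± 0.29. Among 30 genes of actin dynamics 5 rose, with smaller differences, such as Tmsb4x, an actin-binding peptide (0.50 ± 0.10), and Actr3, of the branching complex (0.73 ± 0.14), and Capg, a capping protein, changed by -1.59 ± 0.35. The Tmsb4x call was lost without DC replicate 3 or macrophage replicate 1 (adjusted p = 0.0515 and 0.05), and the Capg call without DC replicate 2, DC replicate 3, macrophage replicate 1 or macrophage replicate 3 (adjusted p = 0.0738, 0.0594, 0.0735 and 0.0578). Of 25 integrin subunits, the called ones beside the gate's Itgae and Itgam were Itga4, Itga9 and Itgb5: Itga9 changed by -3.46 ± 0.36 and Itga4, a partner of gut homing, differed by 2.22 ± 0.56, with a call lost without DC replicate 1, DC replicate 2, DC replicate 3, macrophage replicate 1 or macrophage replicate 2 (adjusted p = 0.0855, 0.152, 0.102, 0.13 and 0.185). The Maf and Actr3 calls were lost in the 6-array fit (adjusted p = 0.05 and 0.0551), that of Actr3 also after quantile normalization (0.0518).

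Of 22 genes induced by interferon, 2 fell, Isg15, a ubiquitin-like modifier (-3.47 ± 0.52), and Oasl2, of the oligoadenylate synthetase family (-2.40 ± 0.33), and the median was -0.27. Ifit1 and Ifit3 differed by 0.04 ± 0.32 and -0.04 ± 0.50 and did not pass the test. A pair of GAAA separated by 2 bases, on either strand, is the core of the element through which interferon regulatory factors such as IRF8 bind. It was present in the 250 bases before the start of 37 of 375 genes lower in DCs (9.87%) and 9 of 279 genes higher in DCs (3.23%), against 3.4% of the 16990 promoters. Of the other motifs searched on both strands, TGANTCA (the AP-1 site) was present in 33 of the 375 (8.8%) and 18 of the 279 (6.45%), against 7.44% of all, and GAGGAA, which holds the core that PU.1 binds, in 138 (36.8%) and 79 (28.3%), against 25.4% of all. GAGGAA replaced a longer form, and a longer form of CACGTG was left out, after motif counts had been seen. The promoters of Fcgr4 and Isg15, lower in DCs, and of Gpr141b, higher in DCs, are shown as genes of both directions that hold the pair of GAAA, with each match in capitals (a pair of TTTC where it lies on the other strand). They lie on GRCm38.p6 at chr1:171018676-171018925 (plus strand), chr4:156200819-156201068 (minus strand) and chr13:19732952-19733201 (minus strand), and the match again describes letters and not binding.
Fcgr4: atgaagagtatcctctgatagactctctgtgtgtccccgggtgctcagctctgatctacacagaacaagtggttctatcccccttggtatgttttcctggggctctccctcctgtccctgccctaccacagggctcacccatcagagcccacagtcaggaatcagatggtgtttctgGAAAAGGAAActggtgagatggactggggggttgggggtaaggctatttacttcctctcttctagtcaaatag
Isg15: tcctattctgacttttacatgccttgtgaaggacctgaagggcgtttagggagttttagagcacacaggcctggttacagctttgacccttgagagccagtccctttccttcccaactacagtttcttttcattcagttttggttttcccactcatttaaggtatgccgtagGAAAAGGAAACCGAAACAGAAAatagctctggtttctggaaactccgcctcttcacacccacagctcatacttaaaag
Gpr141b: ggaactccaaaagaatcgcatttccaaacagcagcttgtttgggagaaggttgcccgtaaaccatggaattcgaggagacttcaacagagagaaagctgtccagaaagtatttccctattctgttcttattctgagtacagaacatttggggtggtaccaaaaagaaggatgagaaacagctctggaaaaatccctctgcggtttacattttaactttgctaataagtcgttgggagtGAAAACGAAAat

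Several house-keeping groups gave few calls or none. None of 24 genes of oxidative phosphorylation and none of 27 ribosomal protein genes passed the limma test, with medians of 0.13 and -0.04 and 2 and 1 genes at an unadjusted p under 0.05. Rpl37, of the large ribosomal subunit, illustrates 1 array at work: DC replicate 3 stood at 5.13, against 0.24 and 0.00 in the other DC arrays. Among 22 glycolysis genes Pfkp, a phosphofructokinase, rose (2.19 ± 0.54), with a call lost without DC replicate 1, DC replicate 2, DC replicate 3, macrophage replicate 1 or macrophage replicate 2 (adjusted p = 0.0776, 0.12, 0.0982, 0.103 and 0.155).

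Markers of other cell types were read in the same arrays, since a sorted gate can hold neighbours. In bulk samples, fewer cells of a type and less RNA per cell cannot be told apart. Of 18 genes of T cells and innate lymphocytes, 4 fell in DCs, Nkg7, Cd7, Cd3d and Cd8b1, and the mean over the list was 0.08, 0.59 and 0.59 in the DC arrays, against 0.83, 0.98 and 2.02 in the macrophage arrays. Nkg7, of cytotoxic granules, stood at -0.37, 0.03 and -0.02 in DCs, against 1.38, 3.96 and 4.33 in macrophages, and Cd3e, of the T cell receptor complex, at 0.13, 0.11 and 2.67, against 2.73, 1.66 and 5.0. The macrophage arrays, and among them replicate 3, were thus highest for lymphocyte genes. A single gene of the 18 passed without DC replicate 1, without DC replicate 3 or without macrophage replicate 3, 2 without DC replicate 2 or macrophage replicate 2, and 3 without macrophage replicate 1. The Cd3d call was lost without DC replicate 1, DC replicate 2, DC replicate 3, macrophage replicate 1 or macrophage replicate 3 (adjusted p = 0.0742, 0.0579, 0.0687, 0.0671 and 0.0621), the Cd7 call without DC replicate 1, DC replicate 3, macrophage replicate 2 or macrophage replicate 3 (adjusted p = 0.0738, 0.0698, 0.0593 and 0.0606), and the Cd8b1 call without DC replicate 1, DC replicate 2, DC replicate 3, macrophage replicate 2 or macrophage replicate 3 (adjusted p = 0.0579, 0.146, 0.0834, 0.156 and 0.0943). The part of such cells in the results above was not tested, and a marker's absence cannot be read from values centred on the probe's median. Of 16 B and plasma cell genes 2 fell, Cd79b and Cd22, and Cd79a and Pax5 differed by 0.04 ± 0.27 and -0.17 ± 0.21. The Cd22 call was lost without DC replicate 1, DC replicate 2, DC replicate 3, macrophage replicate 1 or macrophage replicate 2 (adjusted p = 0.0862, 0.11, 0.108, 0.162 and 0.0751). None of 24 enterocyte genes passed the limma test (1 at an unadjusted p under 0.05), with a median of 0.01, Vil1 and Epcam differing by 0.03 ± 0.23 and -0.20 ± 0.19. Secretory epithelium gave Lyz1 alone of 22, granulocytes and mast cells Csf3r alone of 24, stroma and vessels Pecam1 alone of 20, all lower in DCs, and red cell precursors none of 5 in the limma fit (1 at an unadjusted p under 0.05). The Lyz1 call was lost without DC replicate 2, DC replicate 3 or macrophage replicate 1 (adjusted p = 0.0667, 0.0515 and 0.0799). Plasmacytoid DC genes gave Ccr9 higher and Lair1 lower of 14, and Siglech, a defining marker, differed by 0.43 ± 0.32. The Nkg7 call was lost in the 6-array fit (adjusted p = 0.109), and the Cd79b call after quantile normalization (0.0784) and with the 9 GFP-minus arrays (0.0674).

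**Figure D3:**
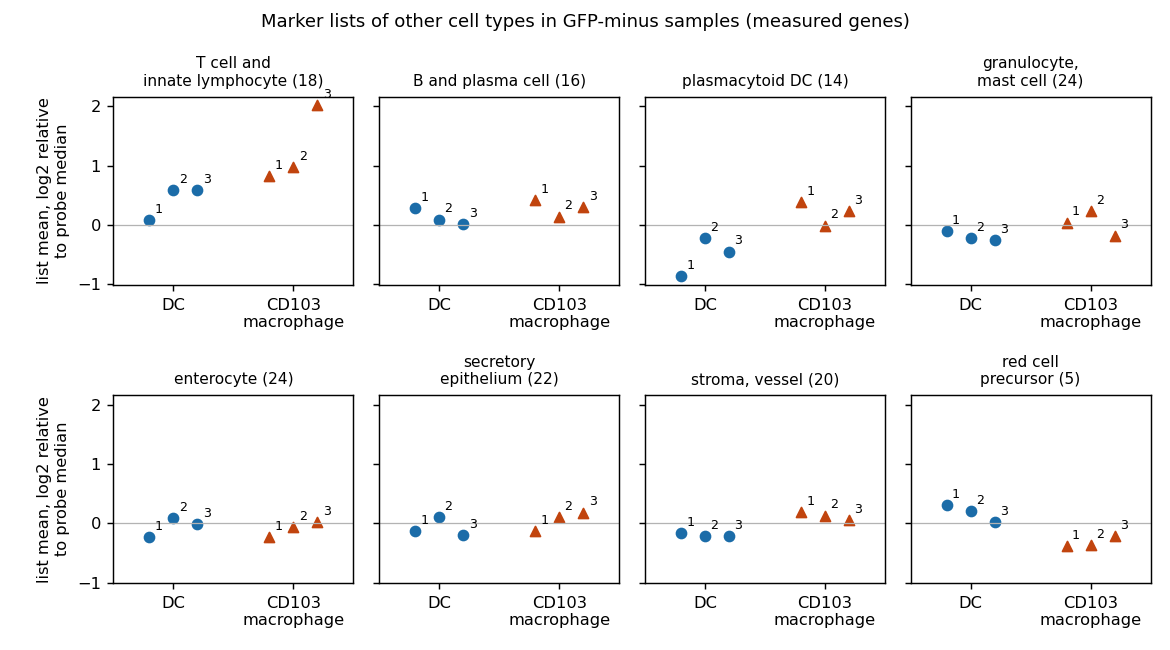
Mean log2 signal relative to the probe's median over 18 arrays (vertical axis) over the measured genes of 8 marker lists of other cell types (panels), with a point per array: circles for the 3 GFP-minus DC arrays, then triangles for the 3 GFP-minus CD103 macrophage arrays, with replicate numbers beside the points. The T cell and innate lymphocyte list lies between 0.08 and 0.59 in DCs and between 0.83 and 2.02 in macrophages.

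Probes for microRNA genes gave 5 called of 483 (1.04%), a smaller share than the 3.63% of all genes tested. They detect RNA from the hairpin locus and not the mature microRNA. None of 22 microRNA genes known from myeloid cells passed, Mir146 and Mir142 differing by -0.13 ± 0.20 and 0.54 ± 0.64, with 0 at an unadjusted p under 0.05. Mir135b rose by 1.65 ± 0.28 log2 units in DCs, with 2.20, 0.77 and 1.63 in DCs, against -0.24, 0.00 and -0.10 in macrophages. Mir5099, Mir344d-2, Mir574 and Mir692-1 changed by -2.61 ± 0.45, -2.0 ± 0.35, -0.79 ± 0.21 and -0.75 ± 0.15. The Mir574 call was lost without DC replicate 1, DC replicate 2, macrophage replicate 1, macrophage replicate 2 or macrophage replicate 3 (adjusted p = 0.195, 0.149, 0.145, 0.161 and 0.0552), and the Mir692-1 call without macrophage replicate 1 (adjusted p = 0.05). The Mir135b and Mir344d-2 calls were lost in the 6-array fit (adjusted p = 0.0949 and 0.0569). The mature RNAs listed in RefSeq (GRCm38.p6) for 4 of the 5 are shown to identify the loci, with the seed, bases 2 to 8, in capitals. Their seeds all differ.
mmu-miR-135b-3p: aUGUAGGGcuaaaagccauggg
mmu-miR-344d-3p: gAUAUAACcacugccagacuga
mmu-miR-344d-2-5p: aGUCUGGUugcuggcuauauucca
mmu-miR-574-5p: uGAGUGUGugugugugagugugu
mmu-miR-574-3p: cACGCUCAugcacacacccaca
mmu-miR-692: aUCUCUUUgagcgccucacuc

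The same pair of cell types was also sorted from the GFP-plus gate, on arrays that share no sample with the GFP-minus comparison. Both comparisons came from the same fit and share each gene's variance estimate, so their calls are not independent. GFP-plus DCs and GFP-plus CD103 macrophages differed in 1533 genes (6.91%), 383 higher in DCs (1.73%) and 1150 lower (5.18%). Of the 471 genes lower in GFP-minus DCs, 368 were also called lower in the GFP-plus comparison, 78.1% of the GFP-minus list and 32% of the GFP-plus list, and the median difference of the 471 was -2.38 in GFP-minus and -2.69 in GFP-plus cells. Of the 334 genes higher in GFP-minus DCs, 115 were also called higher, 34.4% of the GFP-minus list and 30% of the GFP-plus list, with a median of 1.93 in GFP-minus and 0.69 in GFP-plus cells. After quantile normalization the GFP-plus comparison called 341 higher and 580 lower, and in a fit of its 6 arrays alone 752 in all. The 334 and 471 genes were chosen on the GFP-minus values, so the medians on that side are a description. For 458 of the 471 and 256 of the 334 the GFP-plus difference had the same sign, and for 403 and 166 the GFP-plus arrays did not overlap. The shares of all genes with that sign or separation in the GFP-plus gate were not computed, so these counts are only a description. The 4 genes called in opposite directions, Acadsb, Fnta, Hmgn5 and Trit1, were looked up after their values were seen. The GFP-minus call of Acadsb was lost without DC replicate 1, DC replicate 2, macrophage replicate 1, macrophage replicate 2 or macrophage replicate 3 (adjusted p = 0.105, 0.202, 0.0563, 0.195 and 0.0719).

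**Figure D4:**
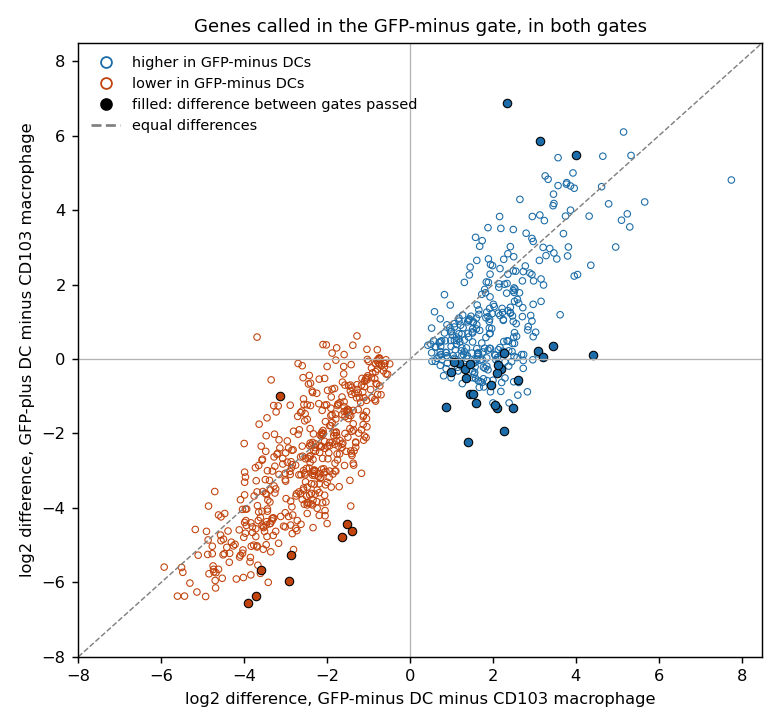
Log2 difference DC minus CD103 macrophage in the GFP-minus gate (horizontal axis) against the same difference in the GFP-plus gate (vertical axis) for the 805 genes called in the GFP-minus gate, with filled points for the 37 of them whose difference between the gates also passed the test. Most genes lower in DCs lie near the line of equal differences, while the genes higher in DCs spread from that line down to and below 0 in the GFP-plus gate.

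Whether the DC to macrophage difference itself differed between the gates was tested for every gene. It passed for 77 genes (0.347%), 62 with a more positive (0.28%) and 15 with a more negative (0.0676%) difference in the GFP-minus gate. This count depended on single arrays: it fell to 36 without GFP-plus macrophage replicate 3, 42 without GFP-minus macrophage replicate 2, 46 and 47 without GFP-minus DC replicates 3 and 2, and 47 without GFP-plus macrophage replicate 2. It was 144 without GFP-minus macrophage replicate 3, 151 without GFP-minus DC replicate 1, 179 without GFP-plus macrophage replicate 1 and 239 without GFP-plus DC replicate 2. The 10 genes with the smallest p in the 2 directions kept their calls in all of these fits. Trit1, which modifies transfer RNA, stood at 0.99, 1.02 and 1.04 in GFP-minus DCs, against -0.12, -0.84 and -0.19 in GFP-minus macrophages, and at -2.21, -1.94 and -2.22 in GFP-plus DCs, against -0.27, 0.38 and 0.21 in GFP-plus macrophages. Its difference of 1.40 ± 0.27 in the GFP-minus gate and -2.23 ± 0.27 in the GFP-plus gate thus changed sign, while its GFP-minus call was lost in the fit of the 9 GFP-minus arrays (adjusted p = 0.0582). Zfp367, a zinc finger protein, differed by 3.20 ± 0.25 in the GFP-minus and 0.06 ± 0.25 in the GFP-plus gate, and Dapk2 by 4.41 ± 0.35 and 0.11 ± 0.35. Ms4a7 was lower in DCs of both gates, by -3.90 ± 0.16 and -6.56 ± 0.16, and the predicted gene Gm3336 differed by 2.12 ± 0.14 and -0.16 ± 0.14. In the other direction, Ly75 was higher in DCs of both gates, by 4.01 ± 0.13 in GFP-minus and 5.49 ± 0.13 in GFP-plus cells. Cd63, a tetraspanin of lysosomes, was lower in DCs of both, by -3.14 ± 0.18 and -1.0 ± 0.18. Gclc, the catalytic subunit for glutathione synthesis, differed by 0.07 ± 0.37 and 4.05 ± 0.37, Eno3, an enolase, by -0.76 ± 0.37 and 3.19 ± 0.37, and Nudt17, a Nudix hydrolase, by 0.34 ± 0.30 and 3.74 ± 0.30.

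**Figure D5:**
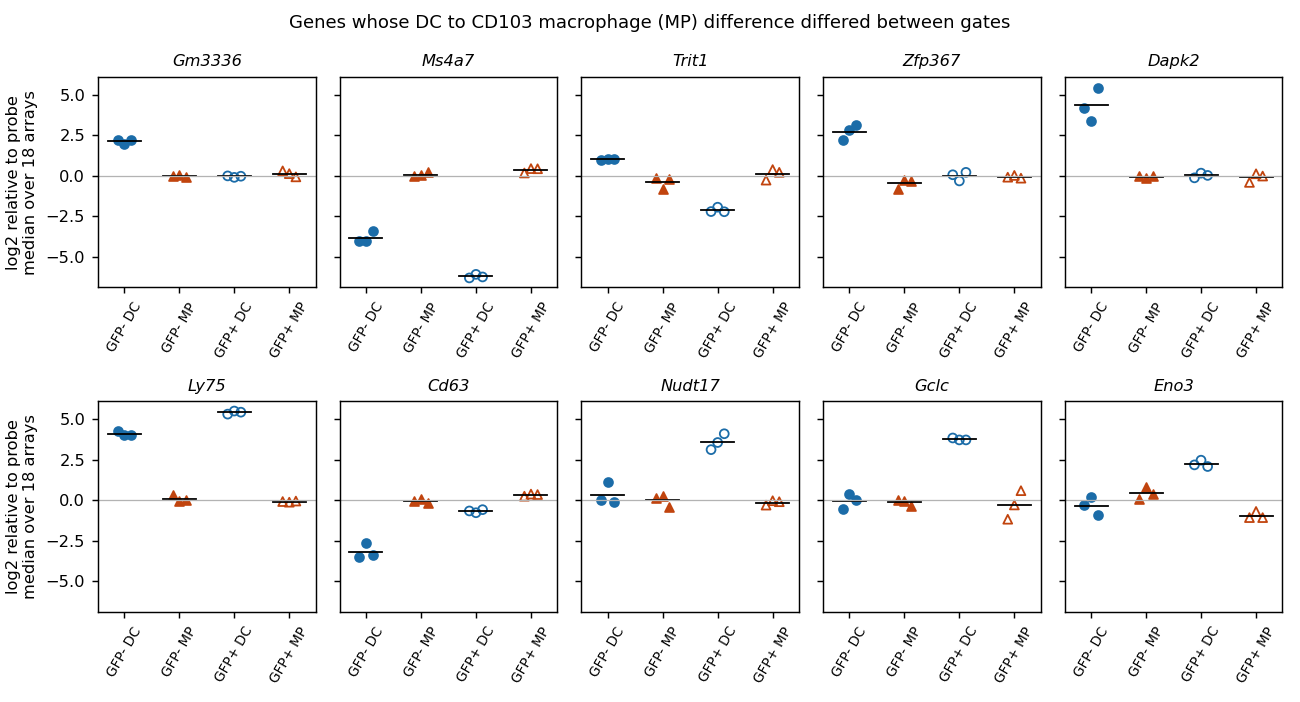
Log2 signal relative to the probe's median over 18 arrays (vertical axis) of the 10 genes with the smallest p for the difference between the gates (panels), 5 for each direction, with a point per array in GFP-minus DCs, GFP-minus CD103 macrophages, GFP-plus DCs and GFP-plus CD103 macrophages, in that order along the horizontal axis, and a bar at each mean. Among the arrays drawn, Dapk2 is high in the 3 of GFP-minus DCs, between 3.39 and 5.42, and Trit1 lies above the macrophages in GFP-minus DCs and below them in GFP-plus DCs.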

How the data were processed

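RNA of 18 sorted samples (6 groups of 3) was measured on Affymetrix mouse gene arrays. Per the labels' protocols, the NuGEN kit WT Ovation Pico amplified 1 ng of RNA. The deposited log2 values are the authors'; their software and normalization: not given in the sources used here. Every probe's median over the 18 arrays was 0 within 1e-06. The base of 2 is inferred: probes spanned up to 10.15, beyond the 4.82 that log10 of a 16-bit scanner allows.

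Probes with 1 gene symbol (23521 of 33793; 1814 had several and 8458 none) were averaged per symbol, 1082 genes having more than 1 probe, which left 22180 genes with no filter on signal. limma 3.58.1 (R 4.3.3) fitted 1 mean per group over all 18 arrays, with variances moderated by empirical Bayes (degrees of freedom: 12 residual, 2.089 prior) and Benjamini-Hochberg adjustment over all genes, threshold 0.05. Contrasts were DC minus CD103 macrophage in each gate and the difference between the gates. The fit was tested on simulated data. Errors are standard errors of that fit. Scan dates or batches are not in the values used here, so none was tested.

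The comparison, its genes and its 46 gene lists were chosen with earlier results of these data known; 97 list entries matched no probe with 1 symbol and are not analysed here. Named genes are the 15 largest and 15 smallest differences among separated called genes, for each list the first 4 and the 6 of smallest p, the sort markers, called microRNA genes, and the 5 of smallest p in each direction for the difference between gates. Any other gene is marked as chosen after its values were seen. Alternatives were quantile normalization, subtracting array medians, fits of 6 or 9 arrays, array weights, leaving out low-weight arrays, a replicate block, the probe of largest variance, dropping genes of low variance, a robust prior, and leaving out each array. Promoters and microRNAs are from RefSeq.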

Additional observations from a re-analysis of the deposited data

Results flagged for a closer look

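For 77 genes the difference between DCs and CD103 macrophages was itself different in the GFP-minus and GFP-plus gates (limma interaction term, adjusted p below 0.05). The 5 with the smallest p and a more positive difference in the GFP-minus gate were Ms4a7 (2.65 ± 0.23 log2 units, SE), Gm3336 (2.28 ± 0.19), Trit1 (3.63 ± 0.38), Dapk2 (4.30 ± 0.50) and Zfp367 (3.14 ± 0.36). The 5 with a more negative one were Ly75 (-1.48 ± 0.18), Cd63 (-2.14 ± 0.26), Nudt17 (-3.39 ± 0.42), Gclc (-3.97 ± 0.53) and Eno3 (-3.95 ± 0.53). Each of these 10 kept its sign and its call under every alternative run for it.

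Outside the genes reported, 107 of 10272 probes that carry several gene symbols or none passed the same test between GFP-minus DCs and GFP-minus CD103 macrophages (1.04%), 42 higher and 65 lower in DCs. They are not named here.

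No group exceeds 3 arrays, so no single array was tested as an outlier by its gap to the others.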

How the results depend on the processing

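Of the 805 genes called between GFP-minus DCs and GFP-minus CD103 macrophages, 680 kept their call after quantile normalization, 791 after subtracting array medians, 785 with array weights, 604 without the 3 arrays of weight below 0.5, 566 in a fit of the 9 GFP-minus arrays, 471 in a fit of the 6 arrays alone and between 532 and 648 when 1 array was left out. None changed sign under any of the 16 alternatives. Array weights moved the count to 1292 called and 636 higher. Leaving out 1 array gave 593 to 904 called, 183 to 425 higher and 356 to 479 lower. The GFP-plus count fell to 921 after quantile normalization and 752 in a fit of its 6 arrays. The count of differences between the gates was 21 after quantile normalization, 186 with array weights and 36 to 239 when 1 array was left out. The cause of these changes was not tested. Of 191 named genes that passed, 130 passed under all 16 alternatives, and of 47 that did not, 8 passed under 1 or more.

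Whether the replicate numbers pair the samples was not settled. Same-numbered DC and CD103 macrophage arrays correlated in their deviations from the group means at -0.096, -0.094 and 0.076 in the GFP-minus gate and at 0.136, 0.074 and -0.041 in the GFP-plus gate. These values cover only pairs within a gate, from 3 arrays a group, and cannot exclude a pairing. With the number as a replicate block, 910 genes were called, 419 higher and 491 lower, and not every array correlated best with its own number. The count of differences between the gates was then 114, against 77 in the main fit. Centred values hide the signal over background, so dim probes could not be removed. With 3 arrays a group, of uneven weight in both groups, the detection of smaller differences is limited.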

Other observations

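Of the 62 genes whose DC to macrophage difference was more positive in the GFP-minus gate, 5 in no list of the report were picked after their values were seen, and no theme was tested over them; of the 5 cell cycle list genes called in the GFP-minus gate, none passed this test between the gates (adjusted p = 0.0527 for Cenpe to 0.256 for Rrm2). Haspin, a kinase of histone H3 in mitosis, differed by 3.44 ± 0.27 log2 units (DC minus CD103 macrophage) in the GFP-minus gate and 0.34 ± 0.27 in the GFP-plus gate (limma adjusted p of the difference between the gates 0.0025). Cdc45, of the replication helicase, differed by 2.27 ± 0.29 and 0.16 ± 0.29 (adjusted p 0.0428), Smc2, a condensin subunit, by 2.04 ± 0.39 and -1.23 ± 0.39 (adjusted p 0.0203, its GFP-minus call lost without the 3 arrays of weight below 0.5), and E2f8, a cell cycle transcription factor, by 1.34 ± 0.24 and -0.52 ± 0.24 (adjusted p 0.0285). Hmmr, a spindle protein, differed by 1.32 ± 0.16 and -0.28 ± 0.16 (adjusted p 0.00769). The calls of these 5 genes between the gates were not followed through the alternatives. Of all 77 such calls, 21 were kept after quantile normalization and 34 without the 3 arrays of weight below 0.5. With array weights 73 were kept, and after subtracting array medians 71.

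For Adamdec1, Pla2g7 and Cybb the DCs were lower in both gates and less so in the GFP-minus gate. All were set out here after their differences between the gates were seen, and Il1a and Hes1 had the same pattern. Il1a differed by -1.41 ± 0.36 in the GFP-minus and -4.61 ± 0.36 in the GFP-plus gate (limma adjusted p of the difference 0.0144). Hes1 differed by -2.88 ± 0.33 and -5.26 ± 0.33 (adjusted p 0.048). Adamdec1 differed by -3.71 ± 0.26 in the GFP-minus and -6.38 ± 0.26 in the GFP-plus gate (limma adjusted p of the difference 0.00544), Pla2g7 by -3.60 ± 0.20 and -5.68 ± 0.20 (adjusted p 0.00544), and Cybb, the catalytic subunit of the phagocyte NADPH oxidase, by -2.92 ± 0.30 and -5.97 ± 0.30 (adjusted p 0.00544). Cybb was picked after its values were seen. The calls of Adamdec1, Pla2g7, Cybb, Il1a and Hes1 between the gates were not followed through the alternatives.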
